A study of Schizosaccharomyces pombe
Saccharomyces cerevisiae with 8 samples.

Results

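Newly synthesized RNA was set against total RNA in Saccharomyces cerevisiae cells that had received the carrier DMSO and no auxin. The 4 libraries were chosen by their labels: 2 of newly synthesized RNA (nsRNA below) and 2 of total RNA, out of 8 in the series, the other 4 being from auxin-treated cells. The cells were the MATalpha strain GZY364 (ade2Δ::hisG, his3Δ200, leu2Δ0, lys2Δ0, met15Δ0, trp1Δ63, ura3Δ0), with OsTIR1, a plant auxin receptor, expressed from the GPD1 promoter at his3, and with SUA7, which encodes the general transcription factor TFIIB, fused to 3 V5 tags and an IAA7 degron (SUA7-3V5-IAA7-kanMX6). Every library carries these alleles, there was 1 strain, and no strain without the degron was included, so that an effect of the tag on the control cells cannot be told apart from the wild-type state. Cells grown in YPD at 30 °C received DMSO for 30 min and then 5 mM 4-thiouracil for 6 min. They were mixed with 3 parts of Schizosaccharomyces pombe cells to 1 part of S. cerevisiae before RNA was extracted. The auxin-treated cells, used in the last comparisons, received auxin in place of DMSO for the same time.

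4-Thiouracil is taken up by cells and built into RNA in place of uracil, so that RNA made during the pulse can be tagged with biotin and pulled away from older RNA. In cells at steady state, a transcript that is degraded quickly has most of its copies made recently and is over-represented among new RNA, while a long-lived transcript is under-represented. The ratio of new to total RNA is therefore read as relative turnover, although it also carries any difference in how well an RNA is labelled and recovered. In yeast, mRNAs of ribosomal proteins and glycolytic enzymes are known as long-lived, and mRNAs of many regulators as short-lived.

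The joined tables held 6808 genes, and the nsRNA libraries held 9496247 and 11779971 counts against 8275038 and 10543351 in total RNA. The 2 replicates of a group, called biological replicates in the series' description, had a Pearson r of log2 values of 0.996 in nsRNA and 0.995 in total RNA across genes. The ratio is expressed on the log2 scale relative to TMM scaling, which sets the typical gene near 0. It has no absolute meaning because the purified and total fractions are different preparations. The tables were not counted in the same way. Of 19 genes that lie inside an intron-bearing gene and are not on the opposite strand, total RNA lists 19 and nsRNA 0, among them 10 mitochondrial genes and 8 snoRNAs. Of 70 genes inside a gene of the opposite strand, nsRNA lists 65 and total RNA 53. Of the 19 genes inside intron-bearing genes, 16 entered the test, and 16 were called lower in nsRNA. These 16 are in the counts over all genes but are left out of the lists and of the genes named below. Without them, 2246 of 5646 genes were higher and 2214 lower. For intron-bearing genes, whether reads from introns were counted in both tables is not given, so their values are less certain. The alpha-cell genes MF(ALPHA)1 and STE3 were between 391 and 587 scaled CPM (counts put on a common library size with TMM factors) in each library, while the a-cell gene BAR1 was between 1.33 and 1.68. The 7 deleted genes and the other a-cell genes were not found by name and are not analysed here.

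The ratio differed from the typical gene for most transcripts. Of 5662 genes tested, 2245 (39.7%) were higher in nsRNA than in total RNA and 2229 (39.4%) were lower at an adjusted p under 0.05 in edgeR's quasi-likelihood test. By a stricter rule, a difference beyond 1 on the log2 scale tested with glmTreat, 542 genes (9.57%) were higher and 830 (14.7%) were lower. Higher and lower are meant relative to the typical gene throughout. On the scale of the deposited factors the median gene is at 1.66, 4799 genes are higher and 316 lower. Where the calls of a list are counted below and its majority turns on that scale, the counts there are given. The Hsf1 chaperones, histones, and general factors and TAFs, given below by medians, turn as well. They had more members lower than higher here, and on that scale 13, 10 and 30 higher and 0 lower. The middle of the distribution was narrow: its quartiles were at -0.66 and 0.60. The ratio of replicate 1 and the ratio of replicate 2, which share no library, had a Pearson r of 0.972 and a Spearman rho of 0.959 over 5646 genes, as a description across genes that are not independent. The lists ran from a median of -4.65 for mitochondrially encoded genes to 1.05 for cell wall mannoproteins.

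**Figure D1:**
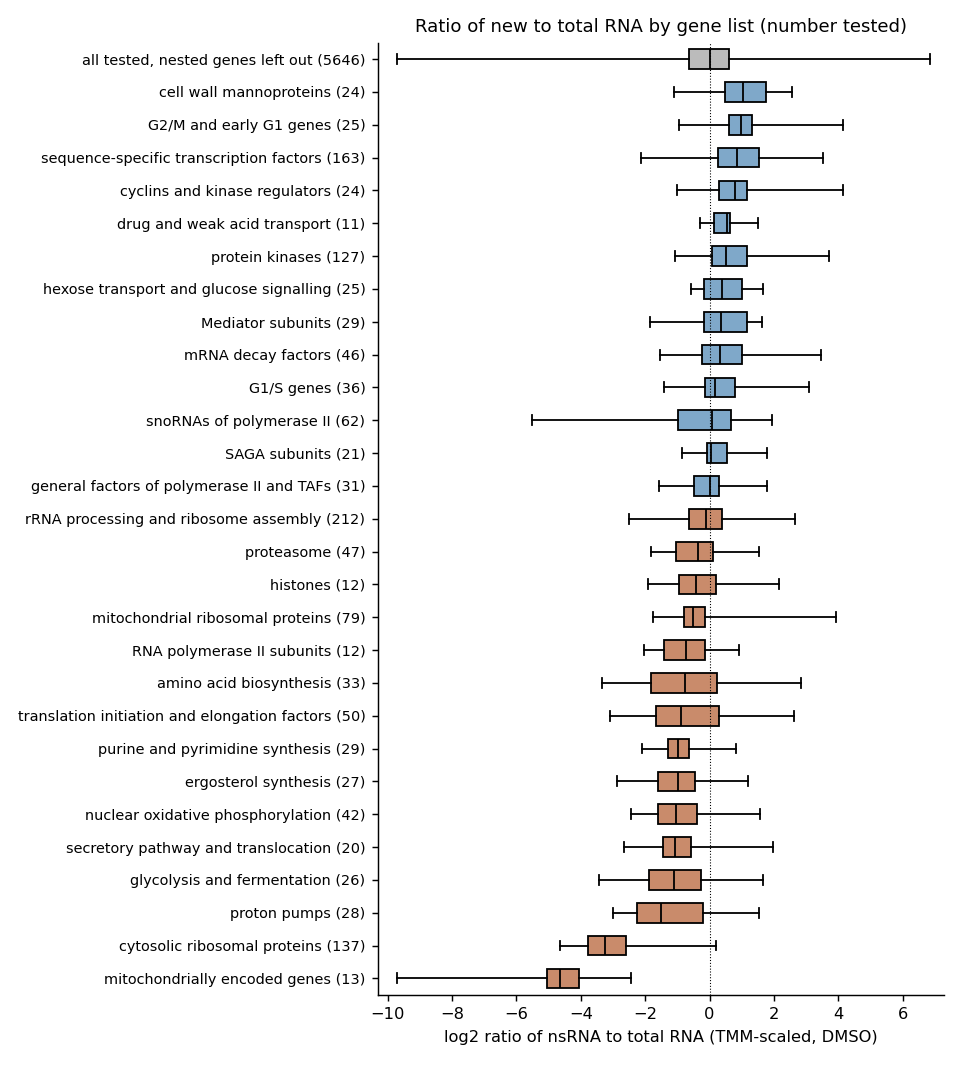
Log2 ratio of nsRNA to total RNA in DMSO for the tested genes of 28 lists and of all tested genes, with the number of genes in brackets. Boxes show quartiles and the median, whiskers the full range, and brown and blue mark medians below and above 0; cytosolic ribosomal proteins (median -3.25) and mitochondrially encoded genes (-4.65) stand furthest to the left.

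Transcripts of regulators of transcription, signalling and the cell cycle were on the new side. Among sequence-specific transcription factors, 124 of 163 tested genes (168 in the list) had the higher value in nsRNA and 13 the lower one. Their median log2 ratio was 0.84, against 39.7% higher and a median of 0.02 among all genes tested. Beyond 1 on the log2 scale, 54 were higher and 3 lower. ROX1, the heme-dependent repressor of hypoxic genes (chromosome XVI, 679693 to 680799, sacCer3), was at 28.8 and 30.9 scaled CPM in nsRNA and at 3.16 and 2.18 in total RNA. Its 2 nsRNA values lay above both total RNA values, and its log2 ratio was 3.51 with an SE of 0.201 (edgeR adjusted p = 2.26e-49). YMR037C, a stress-responsive activator, had 62.2 and 60.2 in nsRNA and 8.61 and 6.81 in total RNA, a log2 ratio of 3.01. The forkhead factor YCR065W, which drives S-phase genes, followed with 2.94; these last 2 were chosen after their values were seen.

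Not all members of the list were alike. YAP1, the oxidative stress activator and the member with one of the highest levels, was at 382 and 391 in nsRNA and 347 and 376 in total RNA, and its log2 ratio of 0.09 did not pass (edgeR adjusted p = 0.116). HAC1, the bZIP factor of the unfolded protein response whose mRNA is spliced in that response, had the lowest ratio, -2.15, with 476 and 450 in nsRNA against 2034 and 2060 in total RNA. CAM1, listed by its annotation but best known as a subunit of translation elongation factor 1B, was at -1.28.

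Protein kinases, a list added after values were seen, had 86 of 127 tested genes higher and 20 lower. Among all genes 39.7% were higher and 39.4% lower, and the median of the kinases was 0.50. KNS1, a kinase that restrains RNA polymerase III transcription, had 49.3 and 58.1 scaled CPM in nsRNA against 3.87 and 4.22 in total RNA. Its log2 ratio of 3.73 (SE 0.157, edgeR adjusted p = 1.75e-75) was the highest of the list. The most abundant kinases, HSL1 and PSK1, were near the typical gene at 0.19 and 0.19. YPK1, which regulates sphingolipid synthesis and membrane flippases, was at -0.63, and YPR054W, chosen after its value was seen, had the lowest ratio of the list at -1.08. By the stricter rule 0 kinases were lower, where the share among all genes was 14.7%.

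Genes of late mitosis and early G1 had a median of 0.97. Of 25 tested genes, 23 were higher and 1 lower, against 39.7% and 39.4% of all genes. CLN3, described below with the highest ratios, headed the list. PIR1, a cell wall protein made at the end of mitosis, was at 205 and 193 in nsRNA and at 38.0 and 33.8 in total RNA, with a log2 ratio of 2.48 (SE 0.0707, edgeR adjusted p = 2.08e-118). SWI5, an activator of genes expressed at the end of mitosis and in G1, had a ratio of 1.75, and the mitotic exit kinase DBF2 1.53. The more abundant AMN1, needed for daughter separation, and IQG1, a cytokinesis scaffold, had 0.97 and 0.39. RME1, a repressor of meiosis, was the one member called lower, at -0.94.

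Cyclins and regulators of cyclin-dependent kinases, also added after values were seen, had 19 of 24 tested genes higher and 1 lower, with a median of 0.80. CLN2, the G1 cyclin that starts the cell cycle, was at 60.1 and 60.3 in nsRNA against 7.38 and 10.9 in total RNA, a log2 ratio of 2.69. The Pho85 cyclin YGL215W had 3.14 and CLN3 4.14, the highest of the list. The mitotic cyclin CLB2, the most abundant of the list, was at 0.91. Of 36 G1/S genes (median 0.18), 18 were higher and 11 lower, against 39.7% and 39.4% of all genes.

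Cell wall mannoproteins, the glycoproteins that form the outer layer of the yeast wall, had the highest median of any list, 1.05. Of 24 tested members of 28, 19 passed as higher and 3 as lower, against 39.7% and 39.4% of all genes. HSP150, a secreted O-mannosylated wall protein, was at 89.8 and 102 in nsRNA and at 17.6 and 15.4 in total RNA, with a log2 ratio of 2.56. GAS1, the abundant glucan-remodelling enzyme, was at -0.33, and CCW12, a mannoprotein of newly made wall, at -1.12.

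The genes with the highest ratios did not come from a single list. PRM7, a pheromone-regulated membrane protein (chromosome IV, 381985 to 384081), led the coding genes whose mean scaled count reached 100, with 70.6 and 83.6 scaled CPM in nsRNA against 4.04 and 3.13 in total RNA. Its log2 ratio was 4.45 with an SE of 0.148 (edgeR adjusted p = 1.54e-100), which is 21.8-fold. MTL1, a putative sensor of cell wall stress, was at 3.99 and the lipase TGL5 at 3.94. MPT5, a PUF-family repressor of mRNAs, had 3.73, but its gene carries an intron. YPR036W-A and YNL190W, a small protein of sporulation and a hydrophilin of desiccation, had 3.71 and 3.60. YNL197C, which holds back the mRNA of the G1 cyclin CLN3, had 3.58, and YKL204W, a competitor of eIF4G, 3.24. CLN3 itself had 13.4 and 11.4 in nsRNA and 0.703 and 0.681 in total RNA, a ratio of 4.14 that rests on 4 and 5 total RNA counts.

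**Figure D2:**
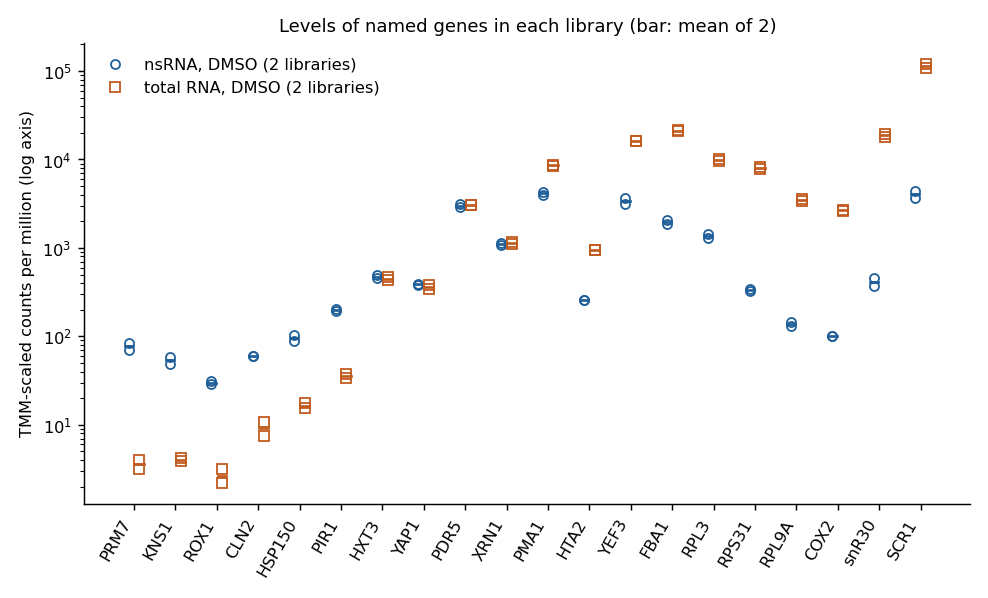
TMM-scaled CPM (log axis) of 20 named genes in the 2 nsRNA libraries (blue circles) and the 2 total RNA libraries (orange squares) from DMSO, with a bar at the mean of each pair. From PRM7 to PIR1 both nsRNA values lie above both total RNA values, around HXT3 to XRN1 they are close, and from PMA1 to SCR1 they lie below.

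Transcripts of the translation apparatus were on the old side, and most of all those of cytosolic ribosomal proteins. Of 137 ribosomal protein genes, all of them tested, 134 were lower in nsRNA and 1 higher, against 39.4% and 39.7% of all genes. Their median log2 ratio was -3.25, which is 0.105 of the typical gene. Beyond 1 on the log2 scale, 123 were lower, against 14.7% of all genes. Their share of all counts was 3.45% and 3.41% in nsRNA and 17.7% and 17.5% in total RNA. The median was -3.46 for 56 small-subunit genes, -3.01 for 76 large-subunit genes and -3.64 for 5 stalk genes. For the 50 genes without an intron it was -3.36 and for the 87 with an intron -2.99.

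RPL9A, a large-subunit protein (chromosome VII, 227754 to 228329), had the lowest ratio of them. It was at 144 and 131 scaled CPM in nsRNA and at 3536 and 3405 in total RNA, so the values of the 2 kinds of RNA are far apart, and its log2 ratio was -4.66 (SE 0.0878, edgeR adjusted p = 3.96e-173). RPS31, made as a fusion of a small-subunit protein with ubiquitin, was at -4.59. RPL3 and RPL10, the most abundant by mean count, had 1447 and 1305, and 1404 and 1278, in nsRNA, with ratios of -2.84 and -2.85. The only ribosomal protein gene called higher was RPL7B at 0.20 (edgeR adjusted p = 0.00722), with 72.6 and 87.6 in nsRNA and 73.1 and 67.4 in total RNA. Its values overlap between the 2 kinds of RNA, and the call is lost without nsRNA replicate 2, without total RNA replicate 2, in the fit of 8 libraries and in DESeq2.

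Many ribosomal proteins are encoded by a pair of duplicated genes, and the 2 copies often differed in ratio. In 59 such pairs, the ratio of replicate 1 was higher for the copy with the lower total RNA level in replicate 2 in 50 pairs, with a median difference of 0.81 on the log2 scale. With the replicates exchanged, it was higher in 49 pairs, with a median of 0.89. Among the 34 pairs whose levels differ more than 2-fold, the copy with the lower level had the higher ratio in 34 pairs, and in 33 with the replicates exchanged. Total RNA is also the divisor of the ratio, so a lower total level goes with a higher ratio in part by construction. Taking the level from the other replicate removes only shared counting noise. How far this sets these counts was not tested. RPS7B was at 75.3 and 70.3 scaled CPM in nsRNA and 100 and 88.2 in total RNA, while its partner RPS7A was at 301 and 293 in nsRNA and 4267 and 4380 in total RNA. The log2 ratios of this pair were -0.37 and -3.86. RPL15B had -1.33 against -4.16 for RPL15A, and RPL7B 0.20 against -2.92 for RPL7A; these pairs were chosen after their values were seen. How the counting split reads between copies of similar sequence is not given, and its part in these differences was not tested.

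**Figure D3:**
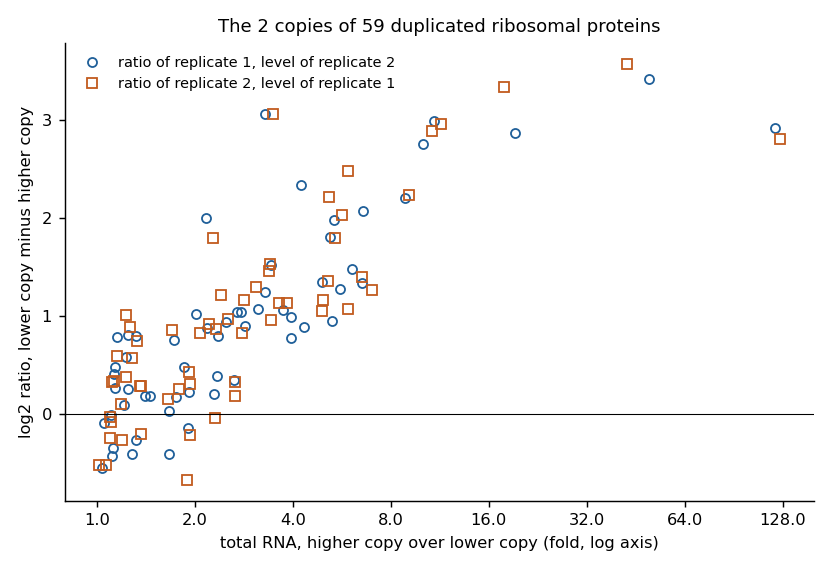
Difference in log2 ratio of nsRNA to total RNA between the copy with the lower and the copy with the higher total RNA level (y axis) against the fold between their total RNA levels (x axis, log scale), for 59 duplicated ribosomal proteins. Circles and squares exchange which replicate gives the ratio and which the level. With levels more than 2-fold apart, 34 of 34 circles and 33 of 34 squares lie above 0. Total RNA is also the divisor of the ratio, so this is in part built in.

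Factors that act with the ribosome were low too, with exceptions. Of 50 translation initiation and elongation factor genes, 31 were lower and 15 higher, against 39.4% and 39.7% of all genes, and the median was -0.87; with the deposited factors 10 were lower and 31 higher. YEF3, elongation factor 3, was at 3652 and 3136 in nsRNA and 16227 and 16193 in total RNA, a log2 ratio of -2.26. TEF1, which encodes elongation factor 1 alpha and has a near-identical copy, was at -2.82, and the gene of eIF1A, YMR260C, at -3.10. The gene of eIF2A, YGR054W, went the other way at 2.63. Among 37 aminoacyl-tRNA synthetase genes, 25 were lower and 8 higher, with a median of -0.74, and with the deposited factors 5 were lower and 22 higher. The cytosolic seryl-tRNA synthetase SES1 had the lowest ratio, -2.51, and the mitochondrial isoleucyl-tRNA synthetase ISM1 the highest, 1.57.

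The genes of ribosome assembly did not share this position. The 212 tested genes of rRNA processing and ribosome assembly had a median of -0.12, with 72 higher and 104 lower, against 39.7% and 39.4% of all genes. With the deposited factors 187 were higher and 3 lower. RPA190, the largest subunit of RNA polymerase I, was at -0.68, SSB1, a ribosome-associated chaperone with a near-identical copy, at -2.19, and YLR009W, a factor of large-subunit assembly, at 1.83. Nuclear genes of mitochondrial ribosomal proteins had a median of -0.50, with 57 of 79 lower and 11 higher, against 39.4% and 39.7% of all genes; with the deposited factors 0 were lower and 67 higher. The most abundant of them, NAM9 and YGL068W, had -0.33 and -1.42.

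Several lists of metabolic genes lay below the typical gene, where 39.4% of all genes were lower and 39.7% higher. In glycolysis and fermentation, 19 of 26 tested genes were lower and 2 higher, with a median of -1.10, and with the deposited factors 6 were lower and 15 higher. Their share of counts was 3.53% and 3.29% in nsRNA and 6.99% and 6.98% in total RNA. FBA1, the aldolase, was at 2056 and 1861 in nsRNA and at 21274 and 20941 in total RNA, a log2 ratio of -3.43 (SE 0.132, edgeR adjusted p = 2.76e-84). Phosphoglycerate kinase, YCR012W, had -2.21. Hexokinase 1, HXK1, was higher at 0.38.

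Nuclear genes of oxidative phosphorylation had 34 of 42 lower and 3 higher, with a median of -1.04, and with the deposited factors 2 lower and 21 higher. COX5B, a cytochrome oxidase subunit, had -2.44, and CYT1, cytochrome c1, 1.37. Ergosterol synthesis had 21 of 27 lower and 5 higher (median -0.98; with the deposited factors 2 and 15), from ERG2, the sterol isomerase, at -2.87 to ERG5, the sterol desaturase, at 1.18. Purine and pyrimidine synthesis had 26 of 29 lower and 3 higher (median -0.97; with the deposited factors 0 and 20), with IMD2, the IMP dehydrogenase, at -2.10. In amino acid biosynthesis, 21 of 33 were lower and 8 higher, with the deposited factors 4 and 22, and the members spanned GDH1, the glutamate dehydrogenase, at -3.35 and LYS20, the homocitrate synthase, at 2.84. LYS20 was at 91.6 and 89.6 in nsRNA against 15.5 and 10.3 in total RNA, with no overlap. Other metabolic lists were closer to the typical gene: fatty acid synthesis had 9 of 18 lower and 7 higher, sulfate assimilation and methionine 16 of 32 and 12, and the galactose genes 2 of 6 and 2. With the deposited factors these lists had 0 lower and 14 higher, 2 and 28, and 0 and 5.

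The list plotted as proton pumps holds 28 genes, of PMA1, the vacuolar ATPase and other genes annotated to vacuolar acidification. It had 22 lower and 3 higher, against 39.4% and 39.7% of all genes, and a median of -1.51. With the deposited factors 10 were lower and 13 higher. The 3 higher genes are no pump subunits: the kinase DBF2 at 1.53, RAV1, which assembles the vacuolar ATPase, at 1.06, and VPS3, a vacuolar sorting factor, at 0.44; RAV1 and VPS3 were chosen after their values were seen. PMA1, the plasma membrane pump, was at -1.05. The V-ATPase subunit gene YEL051W was at -2.99.

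The transcription machinery was mixed, where 39.7% of all genes were higher and 39.4% lower. RPO21, the largest subunit of RNA polymerase II, had a log2 ratio of 0.91 and RPB2, the next largest, -0.08. RPB11, a small subunit, had -2.05. Of 12 polymerase II genes, 9 were lower and 2 higher, and with the deposited factors 0 were lower and 8 higher. SUA7, the tagged gene, was at 122 and 112 in nsRNA and 188 and 199 in total RNA, a ratio of -0.73, beside -0.57 for its polymerase III relative BRF1; both were called lower here and higher with the deposited factors. Mediator, the coactivator that bridges activators and polymerase II, had 18 of 29 genes higher and 8 lower, with a median of 0.34, and ranged from GAL11 at 1.63 to SRB2, an intron-bearing gene, at -1.86. SAGA subunits had a median of 0.06, and general factors and TAFs 0.03.

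Genes of cytoplasmic mRNA decay had 25 of 46 higher and 13 lower, against 39.7% and 39.4% of all genes, with a median of 0.32. PAT1, an activator of decapping, was at 208 and 194 in nsRNA and 44.3 and 45.7 in total RNA, a ratio of 2.16. CDC39, the CCR4-NOT scaffold, was at 1.47. XRN1, the main cytoplasmic 5′ exonuclease and the most abundant member, had 1142 and 1070 in nsRNA and 1112 and 1176 in total RNA and did not pass, at -0.05. LSM2, of the ring that binds deadenylated mRNA, was at -1.55 and carries an intron.

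The ratio moved with the level of a transcript. Over 5183 intronless nuclear coding genes, the ratio of replicate 1 had a Spearman rho of -0.67 with the total RNA level per kb of transcript in replicate 2, as a description across genes. Total RNA is also the divisor of the ratio, so part of this relation is built in, and how large a part was not tested. In 10 equal groups by level, the median ratio was 0.88 in the group of lowest level, 0.01 in the 6th and -1.46 in the group of highest level. The level of nsRNA per kb, taken in the same way, had a rho of -0.29. Transcript length had a rho of 0.42: the median ratio was -0.72 in the 10th of genes with the shortest transcripts and 0.54 in that with the longest. The part of length, and of anything that scales with it in labelling or recovery, was not tested. Against 1158 other intronless coding genes between 192 and 774 nucleotides long, with a median of -0.58, all 137 ribosomal protein genes stood at -3.25. The 50 of them without an intron, of any length, stood at -3.36.

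**Figure D4:**
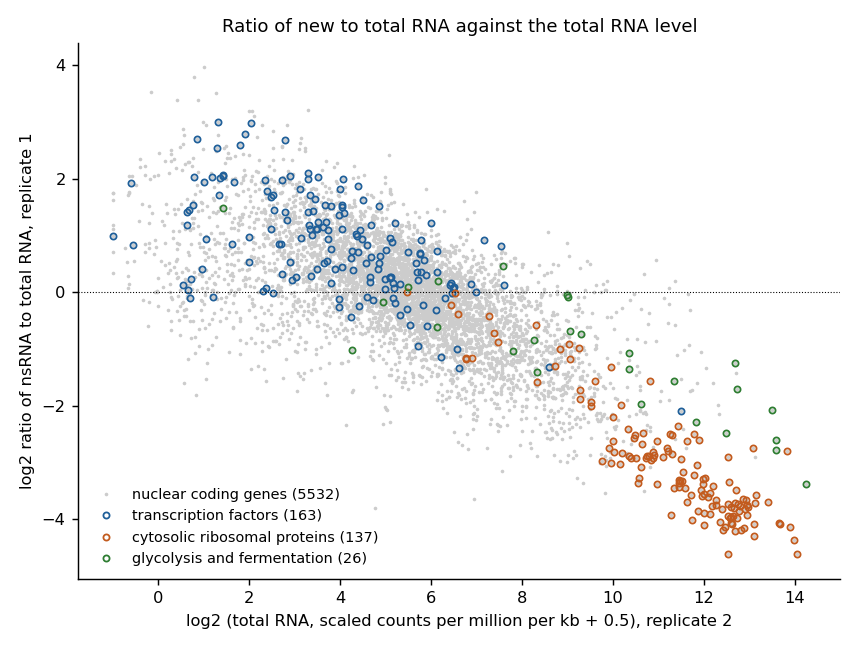
Log2 ratio of nsRNA to total RNA in replicate 1 (y axis) against the total RNA level per kb in replicate 2 (x axis, log2 scale) for 5532 tested nuclear coding genes, with 163 transcription factor, 137 ribosomal protein and 26 glycolytic genes marked. The ratio falls along the x axis, in part by construction, because total RNA is also its divisor. Transcription factors lie at low levels above 0, and ribosomal protein genes lie at high levels and below most other genes of the same level.

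Each gene was therefore also read against the median of the genes in its own level group, using 50 groups of equal size and levels from the other replicate. Among genes of the same total level, this reading largely restates the nsRNA level per kb. It is not a measure of turnover freed from level. The groups include the intronless ribosomal protein genes, which lie at high levels, and how far these set the medians there was not tested. The 895 other intronless coding genes with a total level per kb above the lowest 5% of ribosomal protein genes had a median ratio of -1.09. Set against genes of the same level, the 50 intronless ribosomal protein genes were at -1.06 and -1.05 in the 2 replicates, so their ratio was below that of similarly abundant transcripts. Translation initiation and elongation factors were at 0.27 and 0.22, and aminoacyl-tRNA synthetases at -0.10 and -0.05, so neither list shared the position of the ribosomal proteins in this reading. Glycolysis was at 0.32 and 0.17 and amino acid biosynthesis at -0.07 and -0.13. Ergosterol synthesis was at -0.45 and -0.42. The G2/M and early G1 genes were at 0.72 and 0.70, cell wall mannoproteins at 0.81 and 0.90, and transcription factors at 0.38 and 0.35.

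Read this way, the heat shock chaperones of Hsf1 stood highest of the lists. The 15 genes had a median ratio of -0.04 and -0.08 as measured, but 1.55 and 1.68 relative to their level groups. Ribosomal protein genes were counted in these groups too. HSP82, the inducible Hsp90, was at 6500 and 5897 scaled CPM in nsRNA and 5652 and 5628 in total RNA, a ratio of 0.14 that did not pass (edgeR adjusted p = 0.204). HSC82, its constitutive relative of similar sequence, was at -1.57. Histone genes, expressed in S phase, were at 0.96 and 1.03 above their level, with a plain median of -0.43. HTA2, a histone H2A gene, had 255 and 257 in nsRNA against 954 and 955 in total RNA, and HTB1, a histone H2B gene, 26.2 and 28.7 against 6.50 and 5.85. These 2 genes had ratios of -1.90 and 2.16, and reads of near-identical histone copies may be split between them.

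Noncoding RNAs spanned the whole range. Some structural RNAs were among the most under-represented. SCR1, the RNA component of the signal recognition complex, made up 0.625% and 0.538% of nsRNA counts and 8.33% and 7.47% of total RNA counts, and its log2 ratio was -4.82 (SE 0.226, edgeR adjusted p = 2.14e-65). The spliceosomal U1 and U2 RNAs, SNR19 and LSR1, had -4.84 and -4.52, RPR1, the RNA of RNase P, -2.62, and NME1, the RNA of RNase MRP, -2.71. Of 3 tested polymerase III RNAs other than tRNAs, 2 were lower and 1 higher, at 1.42, against 39.4% and 39.7% of all genes. Among the 3 tested spliceosomal RNAs of polymerase II, SNR14, the U4 RNA, was the exception at 0.58. It had 19.5 and 21.0 scaled CPM in nsRNA, above both of its total RNA values. SNR14 is 160 nucleotides long and had only 74 and 103 counts in total RNA, against 75676 and 83550 for SNR19. Whether so short an RNA was recovered as fully as the longer ones was not tested.

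The snoRNAs, which guide chemical modification and processing of rRNA, were split by length. Of 62 tested snoRNAs of polymerase II, 22 were higher and 23 lower, shares near the 39.7% and 39.4% of all genes, with a median of 0.09. With the deposited factors 49 were higher and 9 lower. Over these and NME1, 63 RNAs outside introns, length and ratio had a Spearman rho of -0.75, as a description. The median was 0.65 for 25 RNAs of up to 110 nucleotides, -0.18 for 26 of up to 250, and -3.49 for 12 longer ones. snR30, an essential H/ACA RNA for rRNA processing, had the lowest ratio, -5.51, with 452 and 373 in nsRNA and 19576 and 17986 in total RNA. SNR84 and snR86 followed at -5.48 and -5.01. At the other end SNR128, a C/D box RNA, had the highest ratio of those with a mean scaled count above 100, at 1.48, with 17.5 and 20.4 in nsRNA and 8.08 and 5.85 in total RNA. The levels of the short RNAs were low in both fractions, and whether they passed the purification and library steps as fully as long RNAs was not tested.

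**Figure D5:**
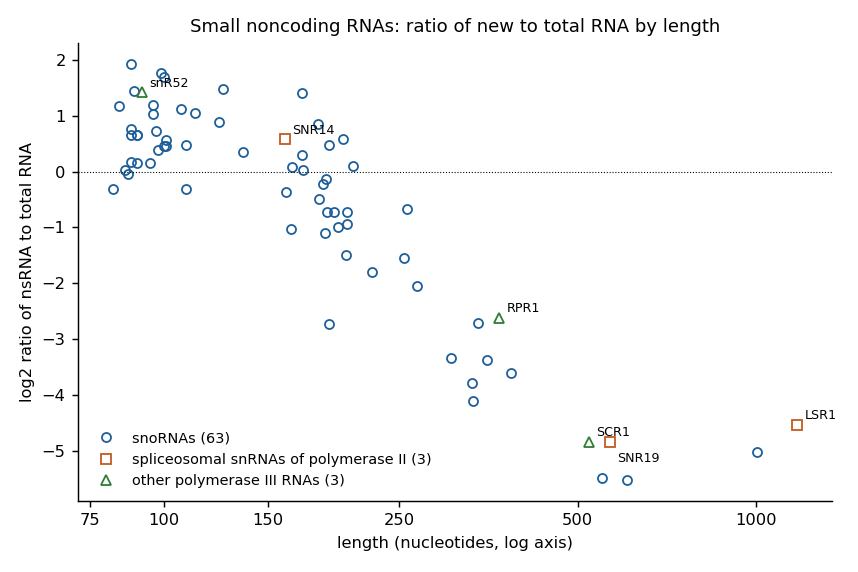
Log2 ratio of nsRNA to total RNA (y axis) against length in nucleotides (log axis) for 63 snoRNAs, 3 spliceosomal RNAs and 3 polymerase III RNAs outside introns. RNAs of up to 110 nucleotides lie mostly above 0 and those over 250 nucleotides lie below it, down to -5.51 for snR30.

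Of the regulatory noncoding RNAs, RME2, the antisense transcript of the meiotic gene IME4, was at 46.8 and 49.9 in nsRNA and 5.27 and 8.03 in total RNA, a ratio of 2.83 (SE 0.143, edgeR adjusted p = 5.24e-59). ICR1, which reads through the FLO11 promoter, was at 0.88. Only 10 of 259 nuclear tRNAs had enough counts to be tested. Of these, 2 were higher and 0 lower, against 39.7% and 39.4% of all genes. The 4 libraries held between 0.00763% and 0.00879% of counts on tRNAs, and the untested ones had too few counts.

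Mitochondrial transcripts, made by a different polymerase inside the organelle, had the lowest ratios. The 13 tested mitochondrially encoded genes outside introns were lower in 13 cases, with a median of -4.65, and the 13 tested mitochondrial tRNAs likewise. Among all genes 39.4% were lower. The tRNAs had 0 to 23 counts in nsRNA and 9 to 99 in total RNA; their fitted median of -4.54 rests on counts near 0, and the replicates' own medians, computed with a pseudocount, were -2.20 and -2.91. COX2, a cytochrome oxidase subunit, was at 102 and 102 in nsRNA and 2597 and 2715 in total RNA, a log2 ratio of -4.70 (SE 0.0831, edgeR adjusted p = 4.20e-182). VAR1, the ribosomal protein encoded in mitochondria, had 31 and 10 counts in nsRNA against 532 and 831, and ATP8 0 and 1 against 205 and 277. The median of these genes relative to all genes moved from -4.95 without nsRNA replicate 1 to -4.32 without nsRNA replicate 2. Whether 4-thiouracil reached mitochondrial RNA as it did nuclear RNA was not tested.

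The total RNA libraries from auxin-treated cells were set beside the ratio. The value used is the RNA left 30 min after auxin, when Sua7 is targeted for degradation, on the scale of the deposited factors. That value depends on decay and on any synthesis that continued, and these were not separated. To share no library, the ratio was taken from one replicate and the change from the other. In 10 equal groups by ratio, the group with the lowest ratio kept a median 52.3% of its total RNA, and 54.4% with the replicates exchanged. The next group kept 25.8% and 24.6%, and the group with the highest ratio 15.5% and 16.9%. From the 5th to the 10th group the median lay between 15.5% and 18.5%. The Spearman rho over 5183 genes was -0.28 and -0.26.

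Some groups stood apart in this pairing. Ribosomal proteins, with a median ratio of -3.25, changed in total RNA by -0.11 and -0.20 on the log2 scale in the 2 replicates, and the proton pump and acidification genes (-1.51) by -0.76 and -0.85, against -2.32 and -2.31 for all genes. Transcription factors (0.84) changed by -2.68 and -2.69. Mitochondrial ribosomal protein genes changed more than these, by -3.19 and -3.17, although their ratio in control cells, -0.50, was below the typical gene. Histones changed by -3.16 and -3.08 with a ratio of -0.43, and aminoacyl-tRNA synthetases by -0.50 and -0.48 with -0.74. The order of groups by ratio was thus not the order by loss from total RNA.

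The ratio itself also differed between control and auxin-treated cells for a part of the genes. In an edgeR interaction fit over 8 libraries, 1654 of 5968 genes (27.7%) had a higher ratio after auxin and 1371 (23%) a lower one. The balance of the directions was not stable: median-of-ratios scaling gave 1087 higher and 1646 lower, and leaving out total RNA replicate 1 of auxin gave 841 higher and 1515 lower. Of the 137 ribosomal protein genes, 130 had a lower ratio after auxin and 2 a higher one, and of 79 mitochondrial ribosomal protein genes 62 had a higher ratio and 1 a lower one.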

How the data were processed

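RNA was sequenced from 4 DMSO libraries after rRNA depletion, with stranded libraries from 300 ng of nsRNA or 800 ng of total RNA, per the labels' protocols. The build sacCer3 and bcl2fastq 2.17.1.14 are named in the submitters' processing notes; for the aligner, counting tool and multi-mapping rule, nothing is stated in these sources. Per the file headers, the deposited tables hold unnormalized counts for each gene and a normalized signal that equals the count divided by 1 factor per library. The origin of these factors is not stated. The authors' own log2 fold changes and p-values in these deposited tables were left aside.

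Tables were joined by gene ID (6808 genes, 6538 in both; 203 in nsRNA alone, with at most 26 counts in a DMSO library; absent genes were set to 0). Of these, 2121 had a gene name and 633 were named from descriptions; others keep systematic names. edgeR 4.0.16 in R 4.3.3 tested nsRNA minus total RNA by quasi-likelihood with TMM scaling; filterByExpr kept genes with a minimum count of 10, and calls are Benjamini-Hochberg adjusted values under 0.05. The printed SE is the absolute log2 ratio divided by the square root of the F statistic and is not a fitted standard error. Single-replicate ratios used a pseudocount of 0.5 CPM. DESeq2 1.42.0, other scalings and filters and left-out libraries were alternatives. On simulated data for this comparison (5450 genes, dispersion 0.01), 98% of genes changed by -1 and 100% of those changed by -2 (log2) were recovered, and 3.88% of calls were false. Only 50 genes were changed by each of -2, -1, 1 and 2 there. In the data 79.0% of genes were called and the fitted common dispersion was 0.00144. The simulated shares therefore do not give the error rates of the calls here. With 2 libraries against 2, the smallest exact permutation p is 0.333, so no single value was tested that way.

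The members, lists and rules were chosen with earlier results of these data known. Lists came from gene symbols and the deposited annotation terms and are incomplete; some annotation terms bring in genes of another main function. Genes called with 4 library pairs of the same sign and averaging 100 or more scaled counts were ranked by ratio. Named were the 10 highest and 10 lowest coding genes and the 5 highest and 5 lowest noncoding genes. Per list, the 2 most abundant members and the highest and lowest of those averaging 100 or more were named, as was SUA7. CAM1, SWI5, CLN3 and PAT1 were outside these rules and were chosen after their values were seen, as were others where this is said. Replicate numbers of nsRNA and total RNA did not pair the libraries in the data (correlation of deviations 0.039). No sequence is printed because no S. cerevisiae reference was used here. Reads of S. pombe origin assigned to S. cerevisiae genes were not tested for.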

Additional observations from a re-analysis of the deposited data

Results flagged for a closer look

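Chosen because the ratio of new to total RNA differed between DMSO and auxin in edgeR's interaction test: the ratio was higher after auxin for 1654 genes and lower for 1371, among 5968 tested; which direction holds more genes depends on the scaling and on 1 library. Among the named genes, the largest differences upwards were in mitochondrial transcripts. ATP8 had a log2 ratio of -9.47 in DMSO and -4.74 after auxin, a difference of 4.73 (edgeR adjusted p = 3.92e-05). It rests on 0 and 1 nsRNA counts in DMSO and 5 and 22 after auxin. The mitochondrial serine tRNA tS(UGA)Q2 differed by 2.15 and VAR1 by 2.01.

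The largest differences downwards were in 3 nuclear genes. The aldolase gene FBA1 had -3.43 in DMSO and -5.94 after auxin, a difference of -2.51 (edgeR adjusted p = 2.99e-13), with 27778 and 32128 nsRNA counts in DMSO and 2117 and 2952 after auxin. IMD2 differed by -2.64, from -2.09 to -4.74. YNL190W, among the highest ratios in DMSO at 3.59, had 0.83 after auxin, a difference of -2.77, with 9 to 15 counts in the total RNA libraries.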

How the results depend on the processing

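The counts depend on where the typical gene is set. Total-count scaling moved the median log2 ratio to 1.08 and gave 4445 genes higher and 752 lower. The deposited factors moved it to 1.66 and gave 4799 and 316. The threshold beyond 1 gave 542 and 830. Relative to the median gene, list medians moved by at most 0.020 under these and the other scalings. A scaling shifts nearly all genes alike, so this was fixed in advance and is no test of the lists. No named gene called in the main fit changed sides of the median gene in 3044 recomputed values. Uncalled named genes were not checked for this. Outside the total-count and deposited scalings, which hold 408 of these values, 26 values lost and 6 gained the call. Not set against the median gene, 36 of 190 called named genes turned from lower to higher with the deposited factors and 25 with total-count scaling, and 0 turned the other way. Other scalings, filters, DESeq2 (1918 and 2044), the fit of 8 libraries and each left-out library (2054 to 2136 higher, 2113 to 2168 lower) stayed within 1.5 times. The replicate block gave 2245 and 2235.

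Left-out genes and libraries, chosen after seeing the data where genes are left out: without nested and intron-bearing genes, medians minus that of all genes became -3.41 for ribosomal proteins, -1.18 for oxidative phosphorylation, -1.27 for proton pumps, -4.93 for mitochondrially encoded genes and 0.28 for actin and tubulin genes, which reversed. The median of the 6 galactose genes ran from -0.013 (reversed, without total RNA replicate 1) to 0.43 with a library left out. The snoRNA median was -0.15 with a mean count of at least 50, and between -0.086 and 0.18 with a library left out; that of mitochondrially encoded genes ran from -4.95 to -4.32. With a mean count of at least 50, rho between the replicates was 0.976, with level -0.71 and with length 0.47. The reverse pairing gave 54.4% in place of 52.3%. The interaction gave 1087 higher and 1646 lower ratios after auxin by median-of-ratios scaling and 841 and 1515 without total_auxin replicate 1 (841 to 1571 higher and 1274 to 1515 lower over the left-out libraries), so in both the majority turned to lower. The cause of these moves was not tested.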
